A study of Mus musculus with 5 samples.

Results

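The measurement described here is the departure of a 2-agent treatment from the sum of its single-agent effects, in 3 kinds of tumor-infiltrating white blood cell. B16-F10 is a mouse melanoma line, and 500000 of its cells were implanted under the skin and the tumors taken 11 days later. From these, living white blood cells (CD45 on the surface) were sorted and sequenced cell by cell from the 5' end of the transcripts. The 4 libraries used here came from mice given buffered saline (PBS), a PD-1 antibody (anti-PD1), an IL15 superagonist, or both agents together (combination). A further library of the series, the anti-PD1-IL15 fusion protein, lies outside this layout. The title of the combination library names the superagonist, whereas the treatment tag has IL15 alone; the title was taken. The labels place treatment after tumor resection. Doses, mouse strain, age and the number of mice behind a library are not stated in the labels. In bulk sums such as those used here, fewer expressing cells and less RNA per cell cannot be told apart unless shares of cells are given. Each treatment has 1 library, so no value below has a replicate check and none is a test between treatments.

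Cells were chosen by transcripts of a few marker genes. CD8 T cells had at least 1 UMI (a counted transcript molecule) summed over Cd3e, Cd3d and Cd3g, at least 2 over Cd8a and Cd8b1, and none of Cd4. NK cells had at least 1 UMI of Ncr1, which encodes the NK receptor NKp46, and none of Cd3e or Cd3d. Macrophages had at least 10 UMIs summed over the complement genes C1qa, C1qb and C1qc and no Cd3. Of 27014 cells kept in the 4 libraries, from 28721 barcodes, 12546 fell into a gate. These were 6903 CD8 T cells (911 from PBS, 1062 from anti-PD1, 1844 from IL15 superagonist and 3086 from the combination), 2033 NK cells (165, 318, 859 and 691 in the same order) and 3610 macrophages (997, 1314, 618 and 681). The whole series holds 37468 barcodes.

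Interleukin 15 is a cytokine that keeps CD8 T cells and NK cells alive and drives their division. It is presented by its receptor alpha chain to neighbouring cells, where it signals through the chains encoded by Il2rb and Il2rg and the kinases JAK1 and JAK3 to the transcription factor STAT5. Superagonists are engineered forms with a stronger or longer-lasting signal. Activated T cells carry PD-1, the product of Pdcd1, which dampens signalling through the T-cell receptor, and blocking antibodies lift this brake. Tumor macrophages carry neither pathway as their main input, but respond to interferon-gamma and other products of T and NK cells. When 2 agents act independently on the log scale, the effect of both together equals the sum of the single effects.

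That sum was the expectation here. UMIs of each gene were summed over the cells of a gate and divided by all UMIs of the gate, giving CPM, counts scaled to the same total in each gate. The expectation for a gene was its log2 CPM in anti-PD1 plus that in IL15 superagonist minus that in PBS, and the departure is the log2 CPM of the combination minus this. A departure of 0 means that the folds over PBS multiplied, a negative departure that the combination lay below that product. The 95% counting intervals given with departures cover the counting of molecules only and hold no variation between mice. Because PBS enters the expectation with the sign opposite to both single agents, a gene that is low in the PBS library alone has a negative departure, and one that is high there a positive one. PBS did stand apart. Of 4317 genes tested in all 3 gates, 10 were high and 15 low in PBS alone. Each lay over 0.5 on the log2 scale beyond the other 3 libraries in every gate. A further gene, Gm10076, was high in PBS and low in the combination. Against these, 1 gene (Ccl4) was high in anti-PD1, and none besides stood apart in a library other than PBS. For this reason the combination is also given directly against both single agents, which leaves PBS out.

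The gated cells carried the markers of their names. Summed over the 10 T-cell markers fixed for the series, the CD8 T gate held 4421 to 5858 CPM in the 4 libraries, the NK gate 485.9 to 769.5 and the macrophage gate 7.99 to 11.9. The 10 NK markers reached 10530 to 29250 CPM in the NK gate, and the 10 macrophage markers 12550 to 17000 CPM in the macrophage gate against 18.9 to 59.2 in the CD8 T gate. NK markers summed to 6773 to 8287 CPM in macrophages, most of it Tyrobp (2895 to 3303 CPM) and Fcer1g (3854 to 5004 CPM), which myeloid cells also express. In the NK gate the 7 neutrophil markers summed to 357 CPM with PBS, 91.7 with anti-PD1, 49.6 with IL15 superagonist and 24.4 with both. The 8 dendritic-cell markers fell in the same order, at 191.9, 71.1, 68.9 and 33.4 CPM. The part of either set in the NK results was not tested. Libraries shared 61 to 82 barcodes in each pair, or 0.915% to 1.21% of the smaller library, and none was common to all 4. Total UMIs were 32832856 to 55152013 a library, with a median of 4279 to 5667 a barcode. The NK cells of the PBS library, at 557671 UMIs, were the thinnest group and set the precision of the NK values.

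CD8 T cells made up a larger share of the combination library than expected from the single agents, and NK cells a smaller one. CD8 T cells were 16.1% of the kept cells of PBS, 15.5% of anti-PD1, 28.7% of IL15 superagonist and 38.2% of the combination. The expectation was 27.8%, so the combination was 1.38-fold above it (95% counting interval 1.25 to 1.51). It also exceeded both single agents. NK cells were 2.91%, 4.66%, 13.4% and 8.55% in the same order. Both single agents were above PBS, and the expectation of 21.4% was 2.50-fold the measured share (2.03 to 3.08). In these libraries the combination share was below that of IL15 superagonist alone, with exact binomial intervals of 7.95 to 9.18 and 12.5 to 14.2 that cover the counting of cells only; with 1 library each this is not a test between treatments. Macrophages were 17.6%, 19.2%, 9.61% and 8.43%, against an expectation of 10.5%, or 1.25-fold the measured share (1.10 to 1.42). Shares add up to a whole, so a larger CD8 T share lowers the others, and neither number of cells per tumor nor per mouse can be told from them.

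**Figure D1:**
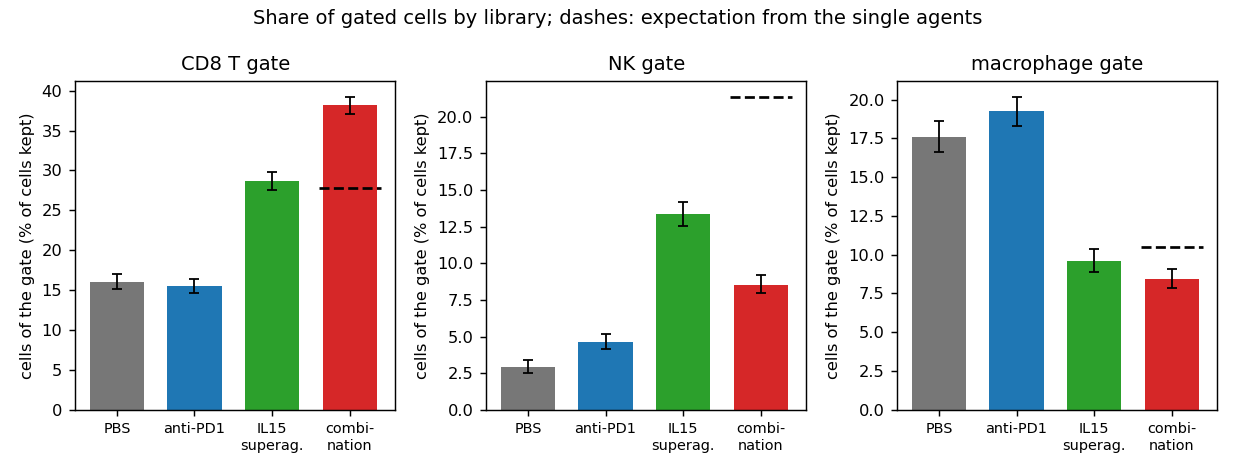
Share of kept cells in each gate, in percent, by library; bars are single libraries, whiskers exact 95% binomial intervals that cover counting only, and the dashed line over the combination is the expectation from the single agents. The CD8 T share of the combination (38.2%) stands above its line at 27.8%, and the NK share (8.55%) below its line at 21.4%.

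Most genes lay near the expectation. In CD8 T cells 8404 of 8893 genes tested (94.5%) were within 2-fold of it, in NK cells 4267 of 4627 (92.2%) and in macrophages 7532 of 7785 (96.8%). In CD8 T cells 221 genes (2.49%) were at least 2-fold above the expectation and 268 (3.01%) at least 2-fold below. Free RNA from another gate is possible for 3 of the 221 and 40 of the 268, against 136 of all 8893 tested. With every such gene left out, 218 of 8757 were above and 228 below, so the 2 sides were nearly equal in number. NK cells had 156 above (3.37%) and 204 below (4.41%), and macrophages 107 above (1.37%) and 146 below (1.88%). The counting interval excluded 0 for 219 of the 221 and 262 of the 268 genes in CD8 T cells, and for 153 of 156 and 172 of 204 in NK cells. These genes were called by distance from 0 on the same values, so this is largely fixed in advance and is no support. Over all genes tested the interval lay above 0 for 1932 and below 0 for 1755 of 8893 in CD8 T cells. In NK cells it did so for 591 and 577 of 4627. Of the 268 genes below in CD8 T cells, 31 were V, D or J segments of T-cell receptors, which mark clones, against 44 of the 8893 tested, and these were not named further. The split depends on the scale of the expectation. Added as linear CPM, it left 735 genes above and 100 below in CD8 T cells, so 88.0% of called genes were above against 45.2% on the log scale, 418 above and 49 below in NK cells, and 365 above and 88 below in macrophages. In NK cells a pseudocount of 5 in place of 0.5 gave 190 above and 70 below.

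The genes below the expectation were mostly of 1 form. In 257 of the 268 genes of CD8 T cells, 95.9%, both single agents were above PBS, against 34.6% of all genes tested. In 247 of the 257 the combination was above PBS as well. That is near the share over all genes tested, where it held for 2894 of the 3074 with both single agents above PBS. The combination lay between the single agents for 154 of the 268 (57.5%, against 56.8% of all genes tested). It lay below both for 101 (37.7% against 23.7%) and above both for 13 (4.85% against 19.5%). The median gene of this set was 1.09 above PBS on the log2 scale in anti-PD1, 1.70 in IL15 superagonist and 1.23 in combination, so that the response to both agents was close in size to the response to 1. The genes above were the mirror image, with both single agents below PBS in 214 of 221 (96.8%, against 42.3% of all genes tested). Part of this form is fixed by the arithmetic, since PBS enters both the single-agent effects and the departure. In macrophages the combination was below both single agents for 122 of the 146 genes below (83.6%, against 39.0% of the 7785 genes tested), and in NK cells for 94 of 204 (46.1% against 21.3%). It was above both for 78 of the 107 genes above in macrophages (72.9% against 22.5%) and for 109 of 156 in NK cells (69.9% against 30.0%). These positions were read from CPM without the pseudocount.

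**Figure D2:**
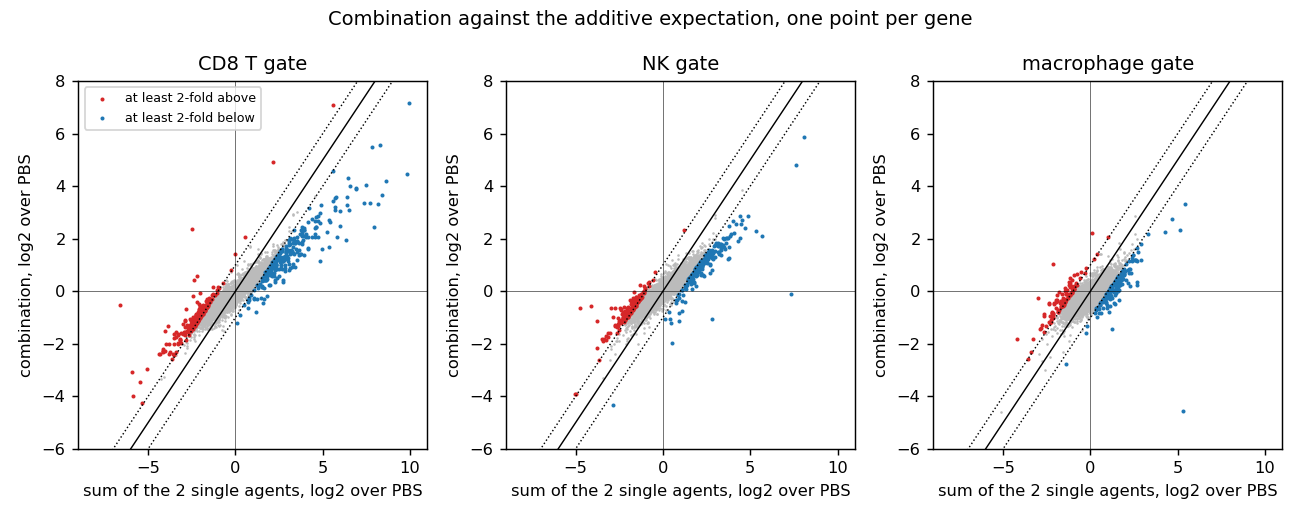
Each point is a gene; the x axis is the sum of the log2 changes of the 2 single agents from PBS, the y axis the log2 change of the combination from PBS, and the dotted lines mark 2-fold from the expectation (solid line). At large expected changes the points past 2-fold lie mostly on the side of a smaller observed change (257 of the 268 genes below in CD8 T cells have both single agents above PBS); both axes use the same PBS library, which by itself pulls points to this side.

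Granzymes and perforin, the proteins with which CD8 T cells kill, lay mostly below the expectation. Of 19 cytotoxic granule genes tested in CD8 T cells, 9 were at least 2-fold below and 0 above, with a median departure of -0.91 on the log2 scale, against 0.023 over all genes tested. Gzmb, the main granzyme of killing CD8 T cells, was at 717, 1922, 1463 and 1810 CPM in PBS, anti-PD1, IL15 superagonist and combination, the order used throughout. The 3 treated libraries were all at least 2.04-fold above PBS and lay within a narrow band, whereas multiplying the single effects gives 3921 CPM (departure -1.11, 95% counting interval -1.17 to -1.06). Prf1, the pore-forming perforin, was at 162, 425, 219 and 306 CPM, with anti-PD1 highest (departure -0.91). The combination lay between the single agents. The neighbouring granzymes Gzmc, Gzmd, Gzme and Gzmf had departures of -2.04, -2.30, -1.92 and -1.32. For Gzmd, at 36.1, 96.5, 90.1 and 48.8 CPM, the combination was below both single agents, at 0.506 of anti-PD1 and 0.542 of IL15 superagonist.

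These granzymes came from few cells. A UMI of Gzmd was found in 1.32, 3.11, 4.23 and 3.92% of the CD8 T cells and of Gzmc in 6.37, 12.99, 16.8 and 10.5%, and the single richest cell held 37.6% of the Gzmd UMIs in PBS. Gzmb to Gzmg are 6 similar genes within 145 kb on chromosome 14 (mm10 positions 56117626 to 56262260), so the split of reads among them is uncertain. Gzma, on chromosome 13, was at 49.8, 222, 964 and 998 CPM (departure -2.10), but its level in CD8 T cells was under 1/10 of that in NK cells, and the part of free RNA from NK cells in it was not tested. Genes of the list near the expectation were Gzmk (0.03), Fasl (-0.12), Cst7 (-0.047) and Nkg7 (-0.22). When the expectation was added on the linear CPM scale instead, the median of the list was -0.40 and Gzmb was at -0.56. Among non-dividing cells the list's median was -0.57, also under 1.5-fold.

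Cytokine and chemokine genes were also below. The median of 13 tested was -1.10, with 7 at least 2-fold below and 0 above. Ccl1, a chemokine of activated T cells that acts on CCR8, had the largest departure of the 12 genes named below the expectation. It was at 24.3, 95.5, 257 and 77.9 CPM, so IL15 superagonist stood highest and the combination lay below anti-PD1. The expectation of 1008 CPM was 12.9-fold the measured value (10.7 to 15.6). Cells with a Ccl1 UMI were 2.74, 7.44, 8.19 and 4.44% of the gate, so both the share of positive cells and their content were lower in the combination than in IL15 superagonist alone. Ifng, which encodes interferon-gamma, was at 103, 211, 171 and 138 CPM (departure -1.34, 95% counting interval -1.49 to -1.18). The single richest cell held 26.6, 8.85, 20.6 and 5.71% of the Ifng UMIs. With other processing settings the departure ran from -2.775 to -1.009. Ifng was above PBS in all 3 treated libraries, with the combination the lowest of them. Xcl1, which attracts cross-presenting dendritic cells, was at 168, 317, 549 and 337 CPM (-1.62), and Lta, lymphotoxin alpha, at 2.98, 8.09, 13.4 and 6.85 CPM (-2.38).

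Ccl5 was on the other side. This chemokine, which is made in large amounts by effector T cells and NK cells, was at 7630, 6960, 9594 and 12140 CPM. The combination was above both single agents, at 1.74-fold anti-PD1 and 1.26-fold IL15 superagonist, and 1.39-fold its expectation (1.37 to 1.41). Csf2, encoding GM-CSF, was at 5.13, 2.08, 13.4 and 10.4 CPM (0.91). Ccl4 was below both single agents at 675, 1066, 729 and 537 CPM; it is the gene that was high in anti-PD1 in all 3 gates.

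Genes of stem-like and memory CD8 T cells were below the expectation as well. The median of 15 tested was -1.11, with 8 at least 2-fold below and 0 above. Tcf7, encoding the transcription factor TCF1 that keeps T cells in a self-renewing state, was at 21.8, 43.2, 84.96 and 55.1 CPM (departure -1.60, 95% counting interval -1.92 to -1.29). IL15 superagonist alone was highest and the combination lay between the single agents. Il7r, the IL-7 receptor of long-lived T cells, followed the same order at 25.8, 63.1, 148 and 110.4 CPM (-1.71). Klf2, a factor of circulating T cells, was at 56.4, 133, 169.5 and 114 CPM (-1.82), with the combination below both single agents. Dapl1, a transcript of naive and memory CD8 T cells, was at 8.11, 20.1, 50.5 and 21.1 CPM (-2.56), with the combination at 0.417 of IL15 superagonist. Over the list the median combination was 0.64 above anti-PD1 and -0.55 from IL15 superagonist on the log2 scale. Bach2 (-0.045) and Cd27 (0.092) were near the expectation. On the linear scale the list's median was -0.66.

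Many interferon-stimulated genes were lower in the combination than in both single agents. Of 23 type I interferon response genes tested, 15 were lower in the combination than in either single agent, against 2145 of all 8893 genes. Relative to the expectation 11 were at least 2-fold below and 0 above, with a median of -0.73. Isg15, a ubiquitin-like modifier induced by interferon, was at 60.2, 119, 109 and 94.9 CPM (-1.18). Ifit3, which restrains viral RNA, was at 4.96, 13.7, 15.9 and 9.25 CPM (-2.23), and Irf7, the amplifier of type I interferon production, at 18.4, 39.5, 65.2 and 52.3 CPM (-1.42). Zbp1, a sensor of nucleic acid, was at 56.1, 119, 99.9 and 93.7 CPM (-1.18). Stat2, which carries the signal, was nearer the expectation (-0.11). Ifitm1, a membrane protein that blocks viral entry and is not on the list, was named for its departure and was at 8.27, 74.3, 112 and 126 CPM. All 3 treated libraries were at least 8.90-fold above PBS, and the expectation was 7.90-fold the measured value (5.88 to 10.6). On the linear scale its departure was -0.50, within 2-fold. Only 1.65, 5.84, 9.76 and 9.27% of cells held a UMI, and 1 cell held 24% of those in PBS. With doublets kept the list's median was -0.58. Interferon-gamma response genes were nearer, with a median of -0.43 and 4 of 26 at least 2-fold below.

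The departures of Ifng, Il12rb2 and Tgtp2 are shown with the sequence before their start sites, because each holds a GAS element, the site bound by STAT dimers that both IL-15 and interferon signalling use. Il12rb2 encodes the signalling chain of the IL-12 receptor and was at 10.6, 37.6, 75.2 and 58.6 CPM (-2.18). Tgtp2, an interferon-induced GTPase, was at 3.31, 16.2, 36.3 and 31.6 CPM (-2.46), with PBS the lowest library. On the linear scale Il12rb2 was at -0.80 and Tgtp2 at -0.64, both within 2-fold. Of the 16 CD8 T genes named by rule at least 2-fold below the expectation, 9 were past 2-fold on the linear scale too (Adnp, Amica1, Gzmb, Ifitm1, Il12rb2, Tcf7 and Tgtp2 were not), of 12 in NK cells 6, and of 9 in macrophages 7. The windows are the 250 bases upstream of the RefSeq start, from build GRCm38.p6 (mm10), written 5' to 3' on the gene's strand with motif matches in capitals.
Ifng (chr10:118440796-118441045, plus strand): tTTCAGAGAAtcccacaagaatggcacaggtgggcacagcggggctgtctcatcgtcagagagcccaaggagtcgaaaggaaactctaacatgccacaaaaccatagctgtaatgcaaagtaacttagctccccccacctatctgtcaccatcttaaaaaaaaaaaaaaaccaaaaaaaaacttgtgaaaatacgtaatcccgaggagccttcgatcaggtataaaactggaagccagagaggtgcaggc
Il12rb2 (chr6:67376189-67376438, minus strand): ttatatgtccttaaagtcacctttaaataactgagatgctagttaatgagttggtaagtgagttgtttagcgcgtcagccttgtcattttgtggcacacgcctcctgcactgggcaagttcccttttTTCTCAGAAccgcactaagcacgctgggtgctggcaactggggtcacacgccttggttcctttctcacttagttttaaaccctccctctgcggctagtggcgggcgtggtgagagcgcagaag
Tgtp2 (chr11:49064213-49064462, minus strand): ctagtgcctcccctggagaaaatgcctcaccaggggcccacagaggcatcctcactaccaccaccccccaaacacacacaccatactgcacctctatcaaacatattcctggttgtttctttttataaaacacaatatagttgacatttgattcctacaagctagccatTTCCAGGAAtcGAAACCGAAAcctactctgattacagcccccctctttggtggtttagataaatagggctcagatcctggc
The search was for GAS (TTCNNNGAA), ISRE (a pair of GAAA with any 2 bases between), an interferon response element, and AP-1 (TGANTCA) on both strands, and the match in Tgtp2 next to its GAS is an ISRE. Of the 27025 genes with a window searched, 8.13% held a GAS, 3.46% an ISRE and 7.82% an AP-1 match in any of their windows. Of 19 named CD8 T genes below the expectation 18 had a window, of which 4 held a GAS (the 3 above and Il1r2). An AP-1 match was held by 2 (Gzmb and Havcr2) and an ISRE by 1 (Tgtp2). The 19 were those farthest below and the fixed genes with any departure under 0, such as Havcr2 at -0.089. A match is a description of the letters and not a bound site.

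**Figure D3:**
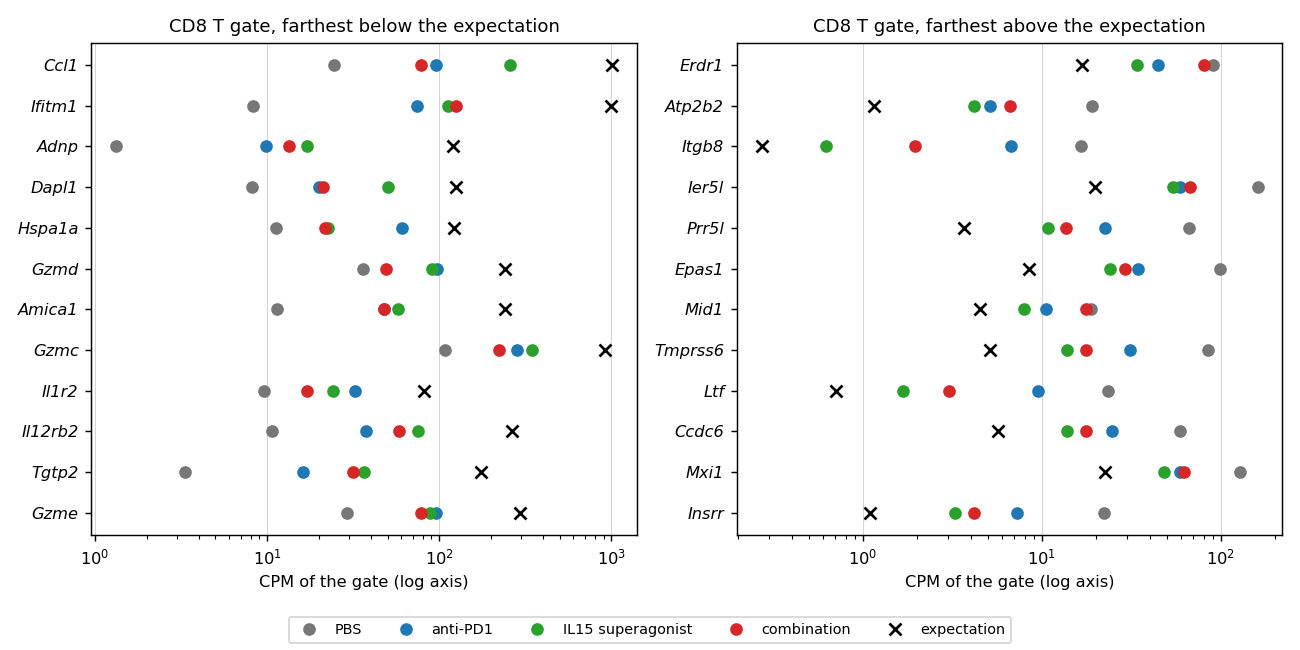
CPM on a log axis in CD8 T cells for the 12 named genes farthest below (left) and above (right) the expectation; coloured points are the 4 libraries and the cross is the expectation. On the left PBS is the lowest library for each gene and the treated libraries lie well short of the cross; on the right PBS is the highest library.

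Genes named below the expectation outside these lists included Hspa1a, a heat-shock protein, at 11.2, 60.6, 22.6 and 21.5 CPM (-2.49), where anti-PD1 alone stood high. The single richest cell held 23.5, 15.2, 16.5 and 26.9% of the Hspa1a UMIs. Amica1, the adhesion molecule also called JAML, was at 11.4, 47.8, 57.6 and 47.97 CPM (-2.32), with the 3 treated libraries close together. Il1r2, the decoy receptor for interleukin 1, was at 9.60, 32.2, 24.2 and 17.1 CPM (-2.25). Adnp, a chromatin-associated zinc-finger protein, was at 1.32, 9.81, 17.1 and 13.5 CPM (-3.15) and rested on 8 UMIs in PBS.

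The receptors that the agents target were nearer the expectation. Il2rb, the shared IL-2 and IL-15 receptor beta chain, was at 729, 669, 687 and 685 CPM (departure 0.12), and Il15ra at 14.7, 12.1, 12.4 and 11.4 CPM (0.16). Il2ra, the alpha chain of the IL-2 receptor, was at 40.04, 63.8, 85.2 and 68.8 CPM (-0.98). Of 20 IL-2 and IL-15 receptor genes and STAT5 targets tested 2 were at least 2-fold below, Myc (-1.04) and Ccnd3 (-1.06), and 0 above, with a median of -0.16. Cish and Socs1, feedback inhibitors induced by STAT5, had departures of -0.47 and -0.56. Pdcd1 itself was at 392, 557, 569 and 587 CPM, above PBS and almost level in the 3 treated libraries (-0.46, 95% counting interval -0.54 to -0.38). The 16 inhibitory receptor and exhaustion genes had a median of -0.068, with 1 at least 2-fold above and 1 below. Nr4a2, a nuclear receptor induced by T-cell receptor signalling, was the one above at 669.9, 338, 521 and 548 CPM (1.06), and Btla, an inhibitory receptor, the one below at 4.47, 8.22, 6.99 and 5.22 CPM (-1.29). Tox, the factor of exhausted T cells, was at 253, 162, 117 and 137 CPM (0.87), lower in all 3 treated libraries than in PBS. Havcr2, encoding TIM-3, was at 93.6, 115, 66.2 and 76.4 CPM (-0.089).

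NK-cell receptors on CD8 T cells were mixed. The 15 tested had a median of -0.86, with 4 at least 2-fold below (Klra4, Klra7, Klrb1c and Fcgr3) and 0 above, but for 9 of the 15 free RNA from NK cells is possible. Klrc1, encoding the inhibitory receptor NKG2A, was at 106, 222, 329.7 and 350.3 CPM (-0.98). Klre1 was above both single agents, at 86.5, 68.4, 74.7 and 116 CPM (departure 0.97, 95% counting interval 0.76 to 1.18). In the MHC class II list, 10 of 11 tested genes were at levels where free RNA is possible in CD8 T cells. Of its members only H2-DMb1 and H2-Aa are named for CD8 T cells, further on and with this limit. Of costimulatory receptors 1 of 11 was at least 2-fold below, Slamf7, at 14.7, 53.1, 63.1 and 62.8 CPM (-1.85). Tnfrsf9, encoding 4-1BB, was at 747, 734, 740.1 and 729.8 CPM, level in all libraries. Among residency and homing genes Cd69, an early activation marker that retains T cells in tissue, was at 26.5, 75.8, 129 and 116 CPM (-1.67), Itga1, the collagen-binding integrin CD49a, at 1.82, 6.13, 17.3 and 18.6 CPM (-1.59), and Itga4 at 276, 149, 165 and 194 CPM (1.13).

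Division genes of CD8 T cells lay close to the expectation, on its upper side. The 33 cell cycle genes had a median of 0.18 (order-statistic interval over members 0.023 to 0.33), with 1 at least 2-fold above, the cyclin Ccne2 (1.19), and 0 below. Mki67, the marker of dividing cells, was at 168, 166, 75.3 and 89.6 CPM (0.27, 95% counting interval 0.10 to 0.43), so PBS and anti-PD1 were level and both libraries with IL15 superagonist were lower. After thinning each cell to 2000 UMIs, 37.2%, 36.5%, 15.4% and 17.6% of CD8 T cells held a UMI of 7 division genes, against an expectation of 15.1% (departure 0.22 on the log2 scale, -0.04 to 0.47). Without thinning the shares were 51.4%, 51.9%, 25.2% and 29.3%, with a departure of 0.20 (0.016 to 0.39). Counting cells with at least 2 such UMIs gave 0.095 (-0.27 to 0.46) thinned and -0.029 (-0.29 to 0.23) unthinned. Oxidative phosphorylation genes had a median of 0.011 over 30 genes and glycolysis -0.52 over 20. The 15 housekeeping genes, which were not chosen for a link to the agents, had a median of -0.26 in CD8 T cells. In NK cells the 13 tested had a median of -0.47, and in macrophages the 15 tested had -0.14. The list shares Pgk1 with the glycolysis list.

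The genes above the expectation in CD8 T cells were mostly transcripts lower in both single agents than in PBS. Epas1, encoding the hypoxia-inducible factor HIF-2 alpha, was at 98.6, 34.6, 24.2 and 29.0 CPM (1.77). Tmprss6, a membrane serine protease, was at 84.9, 31.02, 13.9 and 17.6 CPM (1.79), Prr5l, a partner of the mTOR complex, at 66.01, 22.4, 10.8 and 13.6 CPM (1.89), and Itgb8, the integrin chain that activates TGF-beta, at 16.5, 6.74, 0.620 and 1.97 CPM (2.87). In each of these PBS was highest and anti-PD1 intermediate. For Itgb8 the combination was 2.997-fold IL15 superagonist, where 28.6% of the UMIs came from 1 cell. Mxi1, an antagonist of MYC, was at 128, 59.5, 48.4 and 62.3 CPM (1.47), and the calcium pump gene Atp2b2 at 19.03, 5.15, 4.16 and 6.66 CPM (2.54).

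Erdr1 and Mid1 had another form. Erdr1 was at 90.5, 44.6, 33.9 and 80.2 CPM, with the combination back near PBS and 1.79-fold and 2.36-fold above the single agents (2.26, 95% counting interval 2.01 to 2.51). Mid1, a ubiquitin ligase, was at 18.7, 10.6, 7.96 and 17.7 CPM (1.97). Both genes lie in or at the pseudoautosomal region of the mouse sex chromosomes, where sequence is repetitive. Erdr1 was at least 2-fold above in NK cells and macrophages as well. Xist, the transcript of the inactive X chromosome, was present in CD8 T cells of all 4 libraries at 404 to 641 CPM, and of the Y-linked genes Ddx3y, Eif2s3y, Kdm5d and Uty these cells held 1 UMI in all.

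Set directly against the single agents, few CD8 T genes stood out. At least 2-fold above both were 7 genes of 8893 (0.0787%) and below both 2 (0.0225%). Of these 9, 7 were V segments of T-cell receptors, namely Trav10d, Trav14-1, Trav14d-3-dv8, Trav6-7-dv9, Trav6n-6 and Trbv23 above and Trav14-3 below. The others were Rpl39l, a ribosomal protein paralog, at 4.96, 2.33, 1.86 and 25.7 CPM, and H2-DMb1, an MHC class II chaperone for which free RNA is possible. All 9 are given because they are so few. At smaller distances Esm1 (2.15, 2.08, 4.07 and 7.09 CPM) and Cdk5rap1 (2.98, 4.91, 4.60 and 9.20 CPM) were above both, at low levels. Nrn1, neuritin, was below both at 106, 109.7, 60.3 and 37.8 CPM, as were Ifi27l2a, an interferon-induced gene, at 831, 781, 591 and 411 CPM, and Polr2l at 57.1, 24.9, 26.3 and 15.3 CPM. The histone gene Hist2h2bb was also below both, on 46 to 68 UMIs a library.

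Granzymes and perforin of NK cells were below the expectation too; whether more so than in CD8 T cells was not tested. Of 17 cytotoxic granule genes tested 9 were at least 2-fold below the expectation and 0 above, with a median of -1.31 against -0.028 over all genes. The 13 housekeeping genes tested in NK cells had a median of -0.47. Gzmb was at 893, 2504, 2480 and 2230 CPM (departure -1.64, 95% counting interval -1.78 to -1.50), so that anti-PD1, IL15 superagonist and combination were level at 2.49-fold to 2.80-fold PBS. Gzma, the most abundant granzyme of NK cells, was at 3057, 8422, 15320 and 16980 CPM (-1.31, 95% counting interval -1.39 to -1.24). Here the combination was the highest library, 2.02-fold anti-PD1 and 1.11-fold IL15 superagonist, yet 2.48-fold short of the product. Prf1 was at 209.8, 636, 1045 and 958 CPM (-1.72). Serpinb9b, an inhibitor related to those that protect killer cells from their own granzymes, was at 35.9, 144, 277 and 264 CPM (-2.04), and Klrg1, an inhibitory receptor of mature NK cells, at 35.9, 93.1, 312 and 266 CPM (-1.58). In PBS a single cell held 20% of the Serpinb9b UMIs and 25% of the Klrg1 UMIs. On the linear scale the list's median was -0.51. Gzma was then at -0.28, Prf1 at -0.62, Serpinb9b at -0.54 and Klrg1 at -0.47, each within 2-fold.

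The granzymes Gzmd to Gzmg of NK cells were highest in IL15 superagonist alone. Gzmd was at 19.7, 32.7, 654 and 87.2 CPM (-3.59, 95% counting interval -4.54 to -2.64), the combination reaching 0.134 of IL15 superagonist. Cells with a Gzmd UMI were 0.606, 1.26, 3.73 and 3.33% of the gate, and 1 cell held 27.8% of the Gzmd UMIs in IL15 superagonist, 71.3% in the combination and all 11 in PBS. Gzme followed at 12.6, 27.01, 271 and 65.2 CPM (-3.08) and Gzmf at 3.59, 7.82, 477 and 124 CPM. Gzmc was below both single agents, at 1539, 2197, 2408 and 1375 CPM (-1.32), but lay 0.37 above the expectation under stricter gates, which left 37 NK cells in PBS.

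Of 8 cytokine and chemokine genes in NK cells 4 were at least 2-fold below and 0 above (median -1.03). Ccl4 and Ccl3, inflammatory chemokines, were highest in anti-PD1, at 402, 1640, 629 and 804 CPM (-1.67) and 108, 347, 72.02 and 63.5 CPM (-1.86). For Ccl3 the combination was the lowest library. Spp1, osteopontin, was at 126, 239.6, 614 and 339 CPM (-1.78) and turned to 0.34 with doublets kept and 0.89 under stricter gates. Ifng was at 50.2, 83.2, 90.7 and 69.8 CPM (-1.08). Xcl1 was lower in both libraries with IL15 superagonist, at 922, 978, 532 and 749 CPM (0.41). The list's median was -0.56 with doublets kept and -0.33 under stricter gates.

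The 20 NK-cell receptor genes had a median of -0.10, with 1 above, Klrb1b (1.17), and 1 below, Klrg1. Klra7, a Ly49 receptor, was at 208, 287, 720.4 and 748 CPM, which is close to the product (-0.41), and Klra5 at 10.8, 12.8, 81.7 and 87.5 CPM (-0.074). Eomes, the transcription factor of NK identity, was at 265, 221, 189 and 174 CPM (0.15).

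Above the expectation in NK cells were genes highest in PBS. Nr4a3, a nuclear receptor induced by activation, was at 664, 214, 284 and 337 CPM (1.88). Rora, a nuclear receptor of innate lymphocytes, was at 139.9, 59.7, 60.4 and 89.2 CPM (1.79), and Zbtb20, a transcriptional repressor, at 131, 54.7, 67.2 and 87.5 CPM (1.64). Pmepa1 and Smad7, feedback inhibitors of TGF-beta signalling, were at 283, 89.6, 64.9 and 62.5 CPM (1.60) and 486, 234, 241 and 292 CPM (1.33). Tmem176b, an ion channel protein, was at 89.7, 30.6, 39.98 and 58.1 CPM (2.09), and Hnrnpa0, an RNA-binding protein, at 219, 88.2, 47.9 and 62.5 CPM (1.69); Hnrnpa0 was high in PBS in all 3 gates. Erdr1 was at 124, 46.9, 23.8 and 57.1 CPM (2.66).

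Against both single agents 2 of 4627 NK genes were at least 2-fold above (0.0432%), Apoe and Fabp5, and 4 below (0.0864%), Ccr7, Cd14, Mt1 and S100a8. For all of these but S100a8, free RNA from another gate is possible in NK cells. RNA of cells outside the 3 gates, such as neutrophils, cannot be flagged by this comparison, so S100a8 is not cleared by it. S100a8 and S100a9, neutrophil proteins, were at 144, 31.99, 20.1 and 9.36 CPM and 208, 50.5, 26.4 and 13.7 CPM. A single cell held 56.2% to 91.1% of the S100a8 UMIs and 70.7% to 98.6% of the S100a9 UMIs in each library. Above both single agents by less were Il7r, at 39.5, 23.5, 27.2 and 47.8 CPM, and Plac8, at 703, 466, 608 and 809.9 CPM (1.01). Ifitm1 was at 8.97, 24.2, 90.7 and 141 CPM, with the combination 5.74-fold anti-PD1 and 1.55-fold IL15 superagonist, on 5 UMIs in PBS. Zfp36, which destabilises cytokine messages, was below both at 152, 205, 204 and 138 CPM.

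In macrophages several genes stood past both single agents. At least 2-fold above both single agents were 4 of 7785 genes (0.0514%), and below both 11 (0.141%). Ccl24, a chemokine for eosinophils made by alternatively activated macrophages, was at 116, 58.6, 241 and 539.8 CPM. The combination was 9.21-fold anti-PD1, 2.24-fold IL15 superagonist and 4.44-fold the expectation (3.94 to 5.01). Cells with a Ccl24 UMI were 9.93, 5.94, 19.3 and 22.3%, so the combination differed from IL15 superagonist more in the content of positive cells than in their share. Hp, haptoglobin, was at 20.7, 25.8, 24.9 and 55.6 CPM, Tppp3, a tubulin-binding protein, at 35.5, 36.9, 43.98 and 94.3 CPM and Serpinb2, a plasminogen activator inhibitor, at 3.57, 5.33, 4.94 and 15.1 CPM. For each of these 3 the PBS and single-agent libraries were close together and the combination stood alone, with departures of 0.84, 1.04 and 1.03.

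Genes below both single agents included Ch25h, the enzyme that makes the antiviral sterol 25-hydroxycholesterol, at 15.2, 40.02, 37.2 and 17.7 CPM (-2.46, 95% counting interval -2.91 to -2.01). Each single agent was about as far above PBS as the other, and the combination was back near PBS. Spic, a transcription factor of iron-recycling macrophages, had the same form at 4.003, 10.2, 10.1 and 5.13 CPM (-2.29). Hspb1, a small heat-shock protein, was at 11.7, 11.98, 26.8 and 4.30 CPM (-2.64), Siglec1, the sialic acid receptor CD169, at 22.6, 19.97, 18.2 and 8.11 CPM, and Olfml3 at 18.4, 15.3, 18.2 and 6.12 CPM. Hspb1 of the combination rested on 26 UMIs in 0.881% of cells, and 23.2% to 38.5% of its UMIs in a library came from 1 cell. Ifnb1, encoding interferon-beta, was at 13, 74, 131 and 0 UMIs in PBS, anti-PD1, IL15 superagonist and combination. With 3 counts set as the limit for the count of 0 in the combination, IL15 superagonist was 45.0-fold and anti-PD1 13.2-fold above it. This limit treats UMIs as independent of one another, and the Ifnb1 UMIs came from few cells, so neither fold is a lower bound. Cells with an Ifnb1 UMI were 0.989% of macrophages in anti-PD1 and 1.46% in IL15 superagonist, and 0 of 681 cells of the combination held one. Of the genes above, Spic was below both by less than 2-fold. The others at least 2-fold below both were Ccl17, G0s2, Hist1h1e, Jag1, Ppbp and Tnfrsf9. For Tnfrsf9 free RNA from another gate is possible in macrophages.

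Inflammatory genes of macrophages diverged among themselves. Of 21 tested 4 were at least 2-fold below the expectation and 1 above, with a median of -0.24 against -0.012 over all genes. Nos2, the inducible nitric oxide synthase of classically activated macrophages, was at 15.01, 125, 35.8 and 71.5 CPM. It was highest in anti-PD1, and the combination lay between the single agents at 4.15-fold below the product (3.21 to 5.37). Cells with a Nos2 UMI were 3.51, 17.1, 7.93 and 12.2%. Upp1, uridine phosphorylase, had the same order at 10.2, 124, 36.1 and 101 CPM (-2.12, but -0.57 on the linear scale). The neutrophil-attracting chemokines Cxcl1 and Cxcl3 were at 77.3, 176, 251 and 176 CPM (-1.70) and 105, 249.8, 118 and 74.95 CPM (-1.91), whereas the related Cxcl2 was at 3200, 4349, 4132 and 4346 CPM (-0.37). Il1b was at 2230, 3490, 2211 and 3387 CPM (-0.031), with both libraries that held the antibody higher. Saa3, an acute-phase protein, was the one above, at 19.7, 21.4, 4.09 and 40.7 CPM (3.17, 95% counting interval 2.50 to 3.84), low in IL15 superagonist alone; 16.7% to 41.3% of its UMIs in a library came from 1 cell. Kcna3, a potassium channel, was at 2.001, 11.6, 12.6 and 10.4 CPM (-2.77), with PBS the lowest library.

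Genes of interferon-gamma response in macrophages were highest in anti-PD1. The 27 tested had a median of -0.30, with 1 at least 2-fold below, Tgtp2 (-1.65), and 0 above. Over the list the median change from PBS was 0.77 in anti-PD1, 0.006 in IL15 superagonist and 0.41 in combination on the log2 scale. The 8 monocyte markers in this gate summed to 2062, 2674, 1537 and 2516 CPM, with anti-PD1 and the combination highest as well, among them Ly6c2 (375, 512, 119 and 325 CPM) and Plac8 (739, 1284, 422 and 946 CPM), and their part in this result was not tested. Cxcl9, the chemokine for CXCR3-bearing T cells, was at 569.8, 1003, 804 and 954 CPM (-0.57) and Cd274, the PD-1 ligand PD-L1, at 121, 235, 104 and 148 CPM (-0.44). H2-Ab1, an MHC class II chain, was highest in the combination at 3713, 4655, 3616 and 5230 CPM (0.21).

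Alternatively activated genes lay on both sides of the expectation. Of 20 alternatively activated and suppressive genes 3 were at least 2-fold above and 1 below, and the counting interval lay above 0 for 7 and below 0 for 8. The median was 0.026, and -0.084 on the linear scale. Those above were Ccl24, Retnla, a secreted marker of this state, at 117, 45.1, 109 and 126 CPM (1.58), and Gpnmb, a lysosomal glycoprotein, at 459.5, 109, 380.5 and 241 CPM (1.41). Retnla was detected in 3.11, 0.685, 4.53 and 3.23% of cells, and 44.8% of its UMIs in the combination came from 1 cell. Hmox1, heme oxygenase, was the one below at 523, 791, 706 and 495 CPM (-1.11). Arg1, arginase, and Mrc1, the mannose receptor, were near the expectation, at 1045, 932, 906 and 812 CPM (0.0081) and 256, 169, 356 and 242 CPM (0.043). The 19 lysosome, lipid and scavenger genes had a median of 0.30. Apoe, the lipid carrier, was at 5630, 2155, 3423 and 2451 CPM (0.90), lower in all 3 treated libraries, and Trf, transferrin, at 50.5, 11.1, 33.9 and 20.7 CPM (1.47).

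Cell cycle genes of macrophages were above PBS in IL15 superagonist and below it in the combination, with median differences from PBS of -0.18 in anti-PD1, 0.63 in IL15 superagonist and -0.47 in combination on the log2 scale. The 25 cell cycle genes tested had a median departure of -0.81, with 9 at least 2-fold below and 0 above, and 21 of the 25 were lower in the combination than in both single agents (3013 of 7785 genes tested were, all counted with the pseudocount). Mki67 was at 29.4, 24.3, 41.4 and 19.5 CPM (-0.80, 95% counting interval -1.22 to -0.39), Top2a, the topoisomerase of dividing cells, at 24.6, 24.1, 36.3 and 17.2 CPM (-1.05) and Ube2c, which drives exit from mitosis, at 33.7, 29.8, 50.1 and 16.9 CPM (-1.39). In cells thinned to 2000 UMIs a UMI of the 7 division genes was found in 10.6%, 8.68%, 15.5% and 8.66% of macrophages, and the expectation of 12.7% was 1.47-fold the measured share, with an interval that reaches 1 (0.99 to 2.19). With at least 2 such UMIs a cell it was 2.59-fold (1.35 to 4.99), and in unthinned cells 1.45-fold (1.13 to 1.87) with 1 UMI and 2.02-fold (1.37 to 2.99) with 2.

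**Figure D4:**
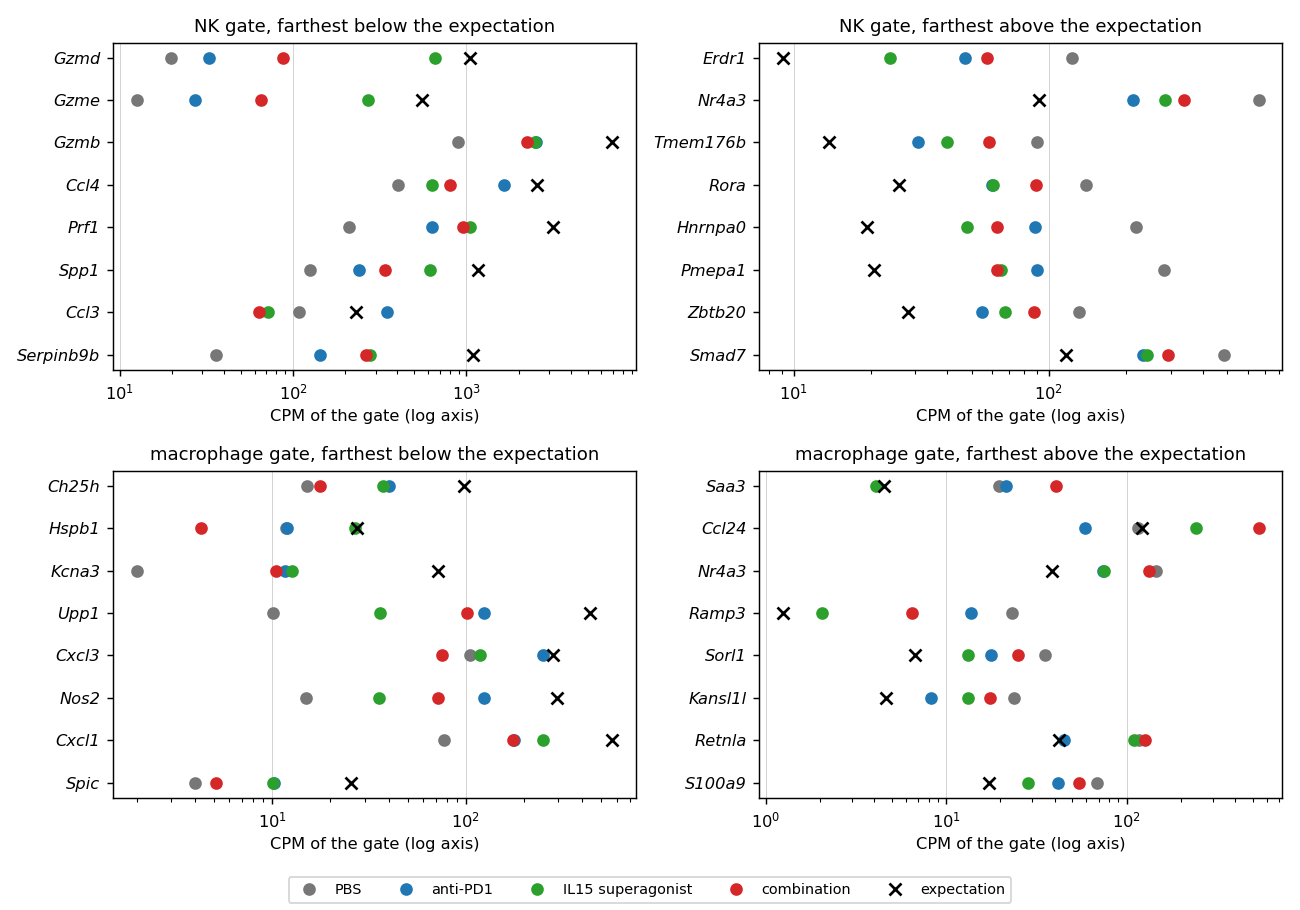
CPM on a log axis in NK cells (top) and macrophages (bottom) for the 8 named genes farthest below (left) and above (right) the expectation; coloured points are the 4 libraries and the cross is the expectation. The combination of macrophages stands alone at the right for Ccl24 (539.8 CPM) and Saa3 (40.7 CPM), while in NK cells it lies among the other treated libraries for most genes below.

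Genes past 2-fold overlapped between the lymphocyte gates. Of the 4585 genes tested in both, 96 were below in CD8 T cells (2.09%) and 201 in NK cells (4.38%), and 25 in both, which is 26.0% of the first and 12.4% of the second. They included Gzma to Gzmg, Ifng, Ccl4, Spp1, Klf2, Myc, Fos and Jun. CD8 T cells and macrophages shared 11 of 127 and 103 (8.66% and 10.7%, where 1.82% and 1.48% of 6968 genes were called), among them Tgtp2, Il1r2, Hspb1, Kcna3 and Hmox1. NK cells and macrophages shared 10 of 182 and 26 (5.49% and 38.5%, where 4.20% and 0.600% of 4334 were called). Above, CD8 T and NK cells shared 15 of 46 and 153 (32.6% and 9.80%, where 1% and 3.34% of 4585 genes were called). CD8 T cells and macrophages shared 13 of 111 and 72 (11.7% and 18.1%, where 1.59% and 1.03% of 6968 were called). NK cells and macrophages shared 11 of 144 and 28 (7.64% and 39.3%, where 3.32% and 0.646% of 4334 were called). In all 3 gates B3gnt2 and Gm4070 were below, and Erdr1, Hnrnpa0, Nr4a3 and S100a9 above. Of these Gm4070 was low and Hnrnpa0 high in the PBS library alone. In macrophages 97.6% of the S100a9 UMIs of IL15 superagonist and 72.8% of those of the combination came from 1 cell, and its departure was 0.34 among non-dividing macrophages. These overlaps use the same 4 libraries and so are not independent of one another.

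**Figure D5:**
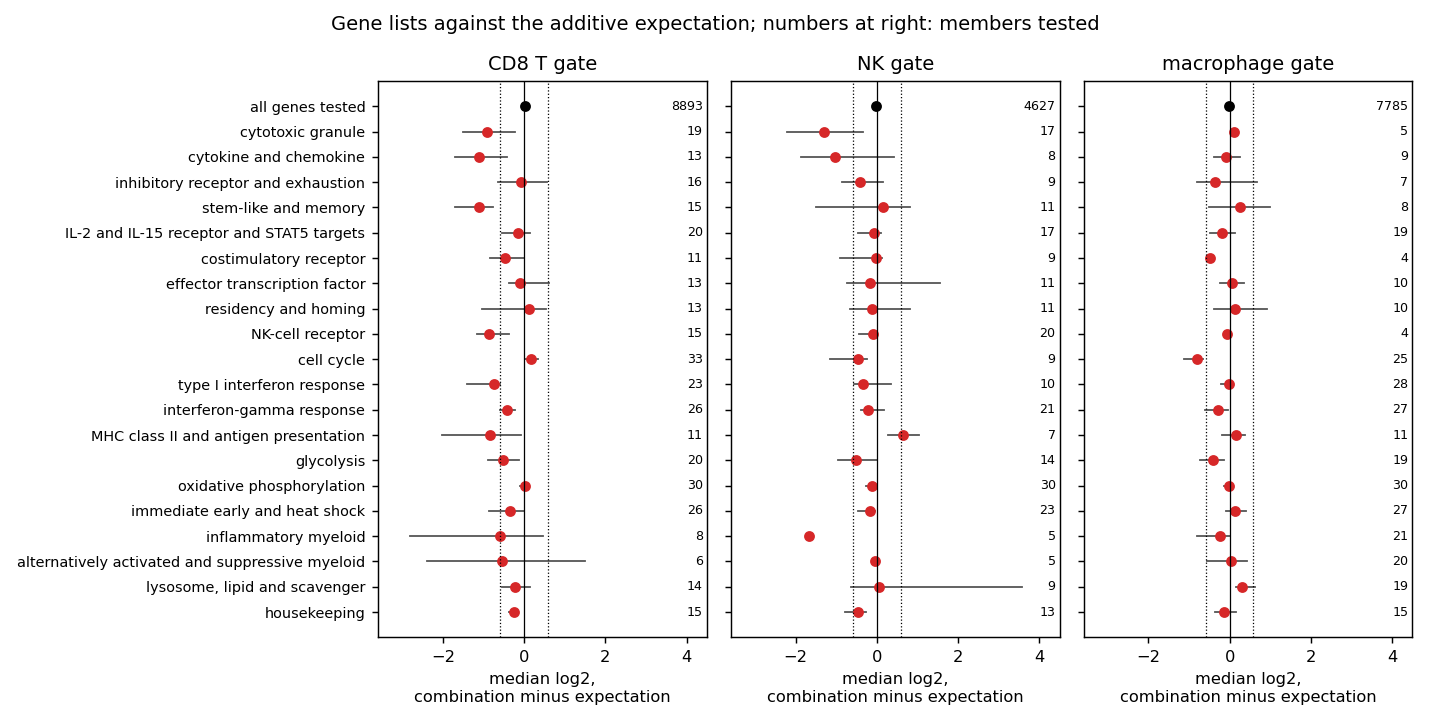
Median departure over the tested members of each gene list (red; black for all genes tested), with the order-statistic 95% interval of the median over members, which are not replicates (none for the shortest lists); dotted lines mark 1.5-fold and the numbers the members tested. Cytotoxic granule genes lie to the left in CD8 T cells (-0.91) and NK cells (-1.31), and cell cycle genes in macrophages (-0.81). Only 5 of the 19 cytotoxic granule genes were tested in macrophages, and for 3 of these free RNA is possible. That median (0.096) is therefore no contrast with the lymphocytes. The MHC class II list of NK cells and of CD8 T cells holds genes for which free RNA is possible.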

How the data were processed

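Per the submitters' processing notes, reads were processed with Cell Ranger 2.1.1 against mm10, and the authors deposited UMI counts per gene and barcode. From these deposited counts, cells were kept at 200 or more genes and a mitochondrial share of UMIs up to 10%. No doublet caller was run: cells with at least 2 genes and 3 UMIs of each of 2 lineages were removed as doublets (3.84% to 6.32% of a library). The pseudocount was 0.5 UMI and genes needed 200 UMIs over the 4 libraries of a gate. With 1 library a treatment no test was run, and a gene is called past 2-fold. Cells are not replicates. The interval calculation was run on simulated counts that held counting variation alone, so this bears on no variation between cells or mice. Genes were named per gate as those whose interval bound was farthest from 0 (12 each way in CD8 T cells, 8 in the others), those farthest past both single agents (6 or 4 each way), fixed genes, and 2 to 4 members of each list; V, D and J segments, gene models and genes where free RNA is possible were left out of the first 2 sets. Further genes the text names, such as all genes 2-fold past both single agents, were chosen after their values were seen. Members and lists were chosen with earlier results of these data known. Promoter motifs are given for named genes only. Alternatives were other minimums, size factors, pseudocounts, scales, gates and cell subsets. Work used Python 3.11.15, NumPy 2.4.6, SciPy 1.17.1 and pandas 2.3.3.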

Additional observations from a re-analysis of the deposited data

Results flagged for a closer look

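The gates differed in direction for a few features, and none of these differences was tested. Of 4585 genes tested in CD8 T and NK cells 4 were past 2-fold on opposite sides, of 6968 in CD8 T cells and macrophages 3, and of 4334 in NK cells and macrophages 0. Il7r, the IL-7 receptor, departed by -1.71 in CD8 T cells and by 1.57 in NK cells. H2-Aa, an MHC class II chain, was at -1.98 and 1.04, and its list at a median of -0.838 and 0.651, but free RNA is possible for H2-Aa in both gates, as it is for Ms4a4c. Ighm, an immunoglobulin chain, was at -1.13 and 1.08, and Ms4a4c at -1.30 and 1.08. Between CD8 T cells and macrophages, H6pd, an enzyme of the endoplasmic reticulum, was at 1.17 and -1.35, Smpdl3b at 1.30 and -1.10, and St6gal1, a sialyltransferase, at -1.04 and 1.71.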

How the results depend on the processing

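No paired analysis was possible because each treatment has 1 library. Counts depended on the UMI minimum, and similar counts could hold different genes: of 489 called in CD8 T cells 177 stayed called on the linear scale (of 835) and 174 in thinned cells (of 341), and of 360 in NK cells 89 under stricter gates (of 340). A minimum of 100 gave 344 genes above in CD8 T cells, 363 above and 381 below in NK cells, and 190 and 267 in macrophages. A minimum of 500 gave 110 and 150, 31 and 73, and 53 and 48. The linear scale gave 735 and 100, 418 and 49, and 365 and 88, leaving out 178, 91 and 39 genes with no positive expectation. Thinned cells gave 135 above in CD8 T cells, 75 and 130 in NK cells and 67 below in macrophages. A pseudocount of 5 gave 70 below in NK cells. Genes past both single agents were few throughout. In CD8 T cells they were 12 above and 14 below (minimum 100), 2 and 1 (minimum 500), 0 and 1 (thinned), 4 and 4 (mean of per-cell CPM) and 4 and 7 (non-dividing), and below were 1 with median-of-ratios factors, 7 with doublets kept and 1 without the top cell. In NK cells they were 0 and 1 (minimum 500, stricter gates, and thinned), 0 and 7 (doublets kept) and 1 and 2 (non-dividing), and above were 0 by mean of per-cell CPM or without the top cell. In macrophages they were 8 and 29 (minimum 100), 2 below (minimum 500), 2 and 1 (thinned), 2 above (mean of per-cell CPM) and 0 above (non-dividing). Under stricter gates the NK share departed by -2.38. Direction turned for Spp1 (0.34 with doublets kept, 0.89 under stricter gates) and Gzmc (0.37 under stricter gates) in NK cells. Below 2-fold at first, Ifitm1 of NK cells turned from -0.68 to 2.04 in thinned cells, 0.93 without the top cell, 0.77 by mean of per-cell CPM and 0.42 on the linear scale, and the NK inhibitory receptor list from -0.43 to 0.057 at a minimum of 100. The macrophage cell cycle list was at 0.40 in non-dividing cells, which were chosen for holding no UMI of 7 division genes, so this value bears nothing on the list's direction. The causes were not tested. Of gene list values 806 were near the first value, 13 moved and 1 turned, and of named genes 1075, 164 and 3. A value counted as turned only if it was past 1.5-fold (lists) or 2-fold (genes) at first. The changes of side of Ifitm1 and of the NK inhibitory receptor list are therefore not among those turned. Other lists and genes near 0 changed side without being counted as turned, such as Havcr2 of CD8 T cells (-0.20 to 0.16 over the settings). Leaving out the top cell was added after seeing the data. NK cells of PBS, 165 in number, limit the NK values.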
